A study of Homo sapiens with 9 samples.

Results

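The antigen processing and presentation genes described here are 37 named genes, among 25245 gene symbols in the deposited expression table. They were chosen by symbol, with no threshold on measured values, and comprise the class I chains, the peptide transport and loading machinery, the immunoproteasome, the class II chains with their invariant chain, the transcriptional regulators of both classes and 3 ligands of the NKG2D receptor. In the table they occupy 155 of 27548 rows, because the genes of the major histocompatibility complex (MHC) recur on alternative haplotypes of the human genome.

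The cells were MDA-MB-231, a human line of triple-negative breast cancer, and gave 9 RNA libraries, 3 in each of 3 groups. CTL+siCTL cells (libraries S1 to S3) were control cells given a universal negative control siRNA, TLX+siCTL cells (S4 to S6) overexpressed the orphan nuclear receptor TLX, encoded by NR2E1, and received the same control siRNA, and TLX+siTLX cells (S7 to S9) were the overexpressing cells given an siRNA that targets TLX. All cells were transfected for 48 h with DharmaFECT 4. The study asked how TLX affects these cells, and the comparisons are TLX+siCTL against CTL+siCTL (the TLX comparison), TLX+siTLX against TLX+siCTL (the siRNA comparison) and TLX+siTLX against CTL+siCTL (the combined comparison). The first 2 share the TLX+siCTL libraries, so a low or high value there enters both with opposite sign. The sources used here do not state how TLX was overexpressed, whether the line is 1 clone, or the siRNA sequences. Control titles contain PC3, the name of a prostate cancer line, without explanation. Since the labels do not describe replicates as separate cultures, p-values refer to the spread between these libraries, and that spread may be technical.

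Class I molecules, a heavy chain paired with beta-2-microglobulin, display peptides cut by the proteasome and pumped into the endoplasmic reticulum by the TAP transporter, and CD8 T cells read them on almost every nucleated cell. Class II molecules display peptides from endosomes to CD4 T cells, and outside professional antigen-presenting cells they are usually made only after interferon gamma or in some tumours. CIITA switches on class II genes and NLRC5 class I genes, each through the RFX complex, which binds the X-box of their promoters.

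Effective library sizes were 73.7 to 91.7 M reads. NR2E1 had log2 CPM (read counts scaled to library size) values of -4.59, -4.28 and -4.50 in the control cells, 0.28, -0.84 and 0.23 in the overexpressing cells, and -2.61, -3.40 and -1.77 after the TLX siRNA, so the order of the groups matched the labels and TLX RNA after the siRNA remained above that of the control cells by 1.86 ± 0.47 (SE, log2, limma adjusted p = 0.0134). S7 and S9 lay further from the other libraries of their group, by a median of 0.111 and 0.121 log2 units over rows, than the remaining 7 libraries (0.0570 to 0.0733). The 6 markers of this basal, mesenchymal line summed to 4306 to 4439 CPM (S1 to S3), 4526 to 4577 CPM (S4 to S6) and 5999 to 6285 CPM (S7 to S9). In the TLX comparison VIM (-0.64, log2) and ANXA1 (-0.69) were lower, and CD44 (0.46), CAV1 (0.96) and AXL (1.13) higher. The limma adjusted p was under 0.05 for each of these, but not for MSN. Hormone receptor and luminal markers summed to 77.4 to 80.2, 90.4 to 98.8 and 94.7 to 110 CPM over the groups. Markers of blood and antigen-presenting cells, 9 of 12 listed in the table, summed to 2.02 to 2.37, 1.84 to 1.92 and 2.34 to 3.46 CPM in the same order, with 2 of them (CD3E and FLT3) under a log2 CPM of -3 in every library. Prostate markers summed to 27.5 to 31.4, 30.7 to 33.0 and 32.0 to 35.2 CPM, with 3 of 6 under that level throughout.

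For each member the values below are CPM summed over all rows of its symbol, and log2 fold changes (± SE) with limma adjusted p-values are those of its row with the highest mean, followed by those of the sum where the call differs. A call is an adjusted p under 0.05 over all rows. Of the 37 members, 24 stood on more than 1 row, and 119 of the 155 member rows lay outside the primary assembly's annotation. For 31 members the highest row reached a mean log2 CPM of 1. HLA-G, HLA-DPA1, HLA-DPB1, HLA-DQB1, HLA-DMB and HLA-DOA were below it.

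Class I and class II genes took different courses. In the TLX comparison 4 of 6 class I chains were higher in TLX+siCTL and 1 was lower, while 7 of the 10 class II chain and invariant chain genes were lower. In the siRNA comparison 8 of those 10 rose and 0 fell, as did 5 of the 6 class I chains, and in the combined comparison 4 of the 10 and 5 of the 6 were above the control cells. Over all members 16 rose and 8 fell in the TLX comparison, with 13 not called and a median log2 fold change of 0.26. Of all rows 15.0% were called higher and 15.1% lower, of the 12564 rows that reached a mean of 1 29.3% and 27.4%, and of summed symbols 16% and 16.2%. In the siRNA comparison 19 members rose, 0 fell and 18 were not called (median 0.24), against 12.7% of all rows called higher and 10.9% lower, 23.8% and 22.0% of rows that reached a mean of 1, and 13.6% and 11.9% of summed symbols. With the library medians over all rows set equal, 15 members rose and 6 fell in the siRNA comparison, and over all rows 2253 were called higher and 5273 lower in place of 3507 and 3011. With the medians of rows at a log2 CPM of 1 or more set equal 19 members rose and 3 fell, and with quantile normalization 18 rose and 3 fell. That centring of all rows shifted log2 fold changes by 0.12 in the TLX comparison and -0.14 in the siRNA comparison, and the TLX comparison then had 5578 rows higher and 3015 lower in place of 4142 and 4162. In the combined comparison 24 members rose, 1 fell and 12 were not called (median 0.37), against 17.7% of all rows called higher and 17.0% lower, 32.4% and 31.2% of rows that reached a mean of 1, and 18.3% and 18.2% of summed symbols. The median over all rows was 0.00 in each comparison. Without S7 the siRNA comparison had 18 members higher and 2 lower and the combined comparison 23 and 2. Without S9 the counts were 20 and 2, and 24 and 1.

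**Figure D1:**
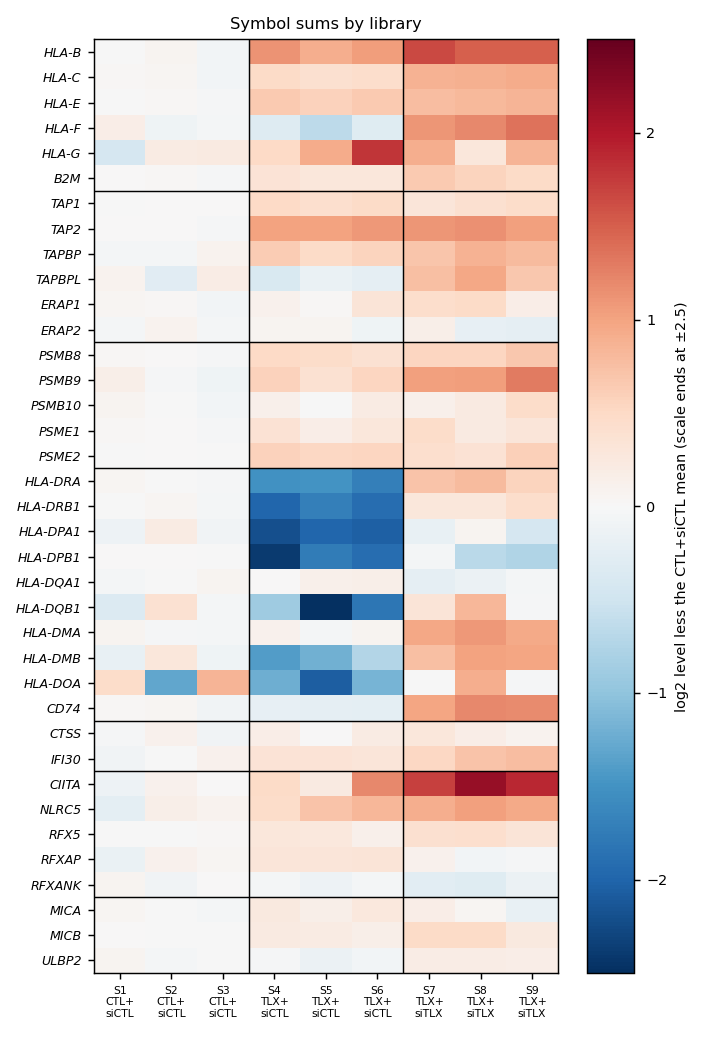
Log2 level of each of the 37 members (summed rows) less its mean in CTL+siCTL, by library, in blocks by role; the colour scale ends at ±2.5. The blue block in S4 to S6 is made of HLA-DRA, HLA-DRB1, HLA-DPA1, HLA-DPB1, HLA-DQB1, HLA-DMB and HLA-DOA, and most class I rows are red in S4 to S9.

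Most class II peptide-binding chains were lowest in TLX+siCTL. HLA-DRA, the alpha chain of HLA-DR, measured 14.3, 13.8 and 13.5 CPM in the CTL+siCTL libraries, 4.86, 4.93 and 4.24 CPM in those of TLX+siCTL, and 22.8, 23.9 and 20.4 CPM in those of TLX+siTLX. The 3 groups did not overlap, with TLX+siCTL lowest and TLX+siTLX highest. In bulk RNA, fewer cells with class II RNA and less of it per cell cannot be told apart. HLA-DRA fell by 1.55 ± 0.10 in the TLX comparison (adjusted p = 6.93e-06), to 0.337 of the control sum, rose by 2.32 ± 0.10 in the siRNA comparison (adjusted p = 3.34e-06), a 4.78-fold difference in the sum, and was 0.77 ± 0.10 above the control cells in the combined comparison (adjusted p = 0.000288).

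HLA-DRB1, the beta chain that pairs with it, followed HLA-DRA. Its sums were 6.29, 6.56 and 6.06 CPM in the CTL+siCTL libraries, 1.57, 1.92 and 1.66 CPM in those of TLX+siCTL, and 7.72, 7.63 and 8.51 CPM in those of TLX+siTLX. No group overlapped another. The log2 fold changes were -1.81 ± 0.12 (adjusted p = 9.24e-06), 2.16 ± 0.12 (adjusted p = 9.85e-06) and 0.35 ± 0.12 (adjusted p = 0.055). Only for the sum was the combined comparison called, at 0.33 ± 0.10 (adjusted p = 0.0274).

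HLA-DPA1 and HLA-DPB1, the 2 chains of HLA-DP, were also low in TLX+siCTL but did not exceed the control cells after the siRNA. HLA-DPA1 sums ranged from 7.28 to 9.18 CPM in S1 to S3, 1.71 to 1.99 CPM in S4 to S6 and 5.89 to 8.33 CPM in S7 to S9, and CTL+siCTL and TLX+siTLX overlapped. It fell by 2.01 ± 0.17 (adjusted p = 3.14e-05) and rose by 1.68 ± 0.17 (adjusted p = 0.000164), with a combined log2 fold change of -0.33 ± 0.17 (adjusted p = 0.191). HLA-DPB1 was at 3.89 to 3.91, 0.723 to 1.14 and 2.29 to 3.75 CPM in the same order, with a fall of 2.07 ± 0.24 (adjusted p = 0.00018), a rise of 1.55 ± 0.24 (adjusted p = 0.00156) and a combined value of -0.52 ± 0.24 (adjusted p = 0.135). HLA-DQB1, the HLA-DQ beta chain, was scarce, at 0.159 to 0.277, 0.0114 to 0.0998 and 0.203 to 0.386 CPM, and was called lower (-2.19 ± 0.42) and then higher (2.49 ± 0.42).

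HLA-DQA1, the alpha chain of HLA-DQ, did not share this course. Its sums were 12.2 to 13.3 CPM in S1 to S3, 12.8 to 14.1 CPM in S4 to S6 and 10.8 to 12.2 CPM in S7 to S9. The log2 fold change in the TLX comparison was 0.09 ± 0.11 (adjusted p = 0.639), against -1.55 for HLA-DRA and -2.19 for HLA-DQB1; the difference between these genes was not tested. In the siRNA comparison the row was not called (-0.21 ± 0.11, adjusted p = 0.262) and the sum was lower by a small margin (-0.24 ± 0.07, adjusted p = 0.0244). Here the libraries of CTL+siCTL and TLX+siCTL overlapped.

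**Figure D2:**
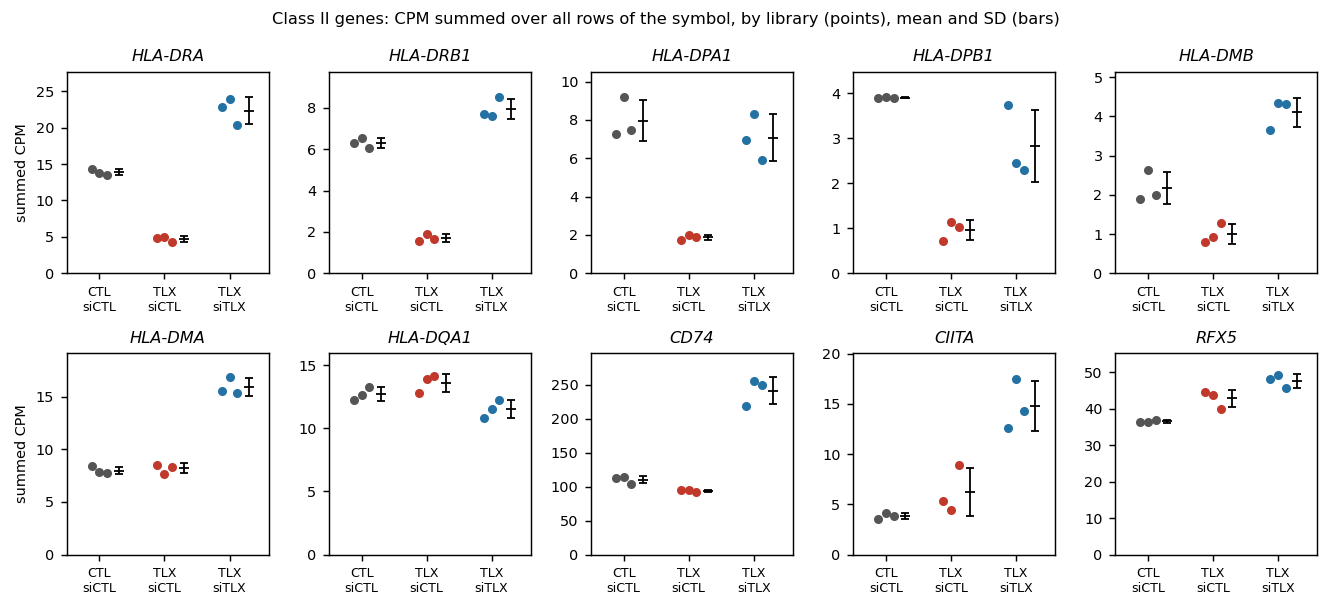
CPM summed over all rows of a symbol for 8 class II genes and the regulators CIITA and RFX5; points are libraries, the horizontal mark and bar are mean and SD (n = 3), axes start at 0. HLA-DRA, HLA-DRB1, HLA-DPA1, HLA-DPB1 and HLA-DMB are lowest in TLX+siCTL, while HLA-DQA1 lies between 10.8 and 14.1 CPM in all libraries.

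Promoter sequence is shown for HLA-DRB1 and HLA-DPA1, which were low in TLX+siCTL, and for HLA-DQA1, which was not. It is also shown for CD74, whose fall there was smaller (log2 fold change -0.23). RefSeq windows of GRCh38.p14 were available for 32 of the 37 members (44 windows of 35116), the others being HLA-E, HLA-DRA, CIITA, NLRC5 and CTSS. In the 250 bases before each start, on both strands, the search covered the X-box core GCAACNG, the Y-box ATTGG, the interferon response element (GAAA, any 2 bases, GAAA), the interferon gamma site (TTC, any 3 bases, GAA), an NF-kB pattern (GGG, any 5 bases, CC) and the TLX half-site AAGTCA. The interferon response element can overlap itself, and the gamma site reads the same on both strands. Below are the 200 bases before the start of HLA-DRB1 (chr6:32589849-32590048, minus strand), HLA-DPA1 (chr6:33073650-33073849, minus strand, 1 of its 2 windows), HLA-DQA1 (chr6:32637206-32637405, plus strand) and CD74 (chr5:150412911-150413110, minus strand), 5′ to 3′. Capitals mark matches other than the NF-kB pattern. They are reference sequence, not that of the haplotypes these cells carry.
HLA-DRB1: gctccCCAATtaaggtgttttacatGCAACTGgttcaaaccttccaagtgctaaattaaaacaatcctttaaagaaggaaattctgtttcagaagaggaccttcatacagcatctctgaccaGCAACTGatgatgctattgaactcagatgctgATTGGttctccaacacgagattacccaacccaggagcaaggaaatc
HLA-DPA1: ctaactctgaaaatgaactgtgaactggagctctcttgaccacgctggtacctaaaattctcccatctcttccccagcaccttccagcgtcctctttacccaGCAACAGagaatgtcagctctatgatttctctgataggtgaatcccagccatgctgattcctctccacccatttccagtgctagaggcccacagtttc
HLA-DQA1: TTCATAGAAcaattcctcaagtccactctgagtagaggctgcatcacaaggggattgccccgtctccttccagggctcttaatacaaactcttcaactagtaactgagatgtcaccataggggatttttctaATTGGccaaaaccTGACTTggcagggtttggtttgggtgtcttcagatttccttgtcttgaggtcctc
CD74: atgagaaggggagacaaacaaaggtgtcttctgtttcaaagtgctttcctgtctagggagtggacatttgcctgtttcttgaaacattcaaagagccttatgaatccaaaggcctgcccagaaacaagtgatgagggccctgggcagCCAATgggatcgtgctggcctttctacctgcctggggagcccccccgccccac

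The HLA-DRB1 window held the X-box core at 78 to 72 and at 175 to 169 bases before the start, and the Y-box at 46 to 42 and, on the other strand, at 195 to 191. HLA-DPA1 held an X-box core at 98 to 92 bases in the window shown, which was picked for that match, and none in its other window. HLA-DOA held the core at 100 to 94. The windows of HLA-DPB1, HLA-DQB1 and HLA-DMB, which were also low in TLX+siCTL, had no match to the core. In the HLA-DQA1 window the exact core letters GCAACNG were not found, while a Y-box lay at 68 to 64 bases and the reverse of the TLX half-site at 55 to 50. The letters gtaactg upstream of that Y-box differ from the core and were not counted. Over the 10 windows of class II chains and CD74, the X-box core was in 3 (30.0%, against 9.42% of all windows) and the Y-box in 8 (80.0%, against 32.0%). The interferon response element was in 0 of them (3.02% of all windows), the gamma site in 1 (6.57% of all), the TLX half-site in 2 (10.9% of all) and the NF-kB pattern in 7 (54.4% of all). The second TLX half-site match was that of HLA-DPB1, at 236 to 231 bases. A match describes letters only, and a missing match does not show that a box is absent.

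The accessory class II genes divided. HLA-DMA and HLA-DMB form HLA-DM, which exchanges the invariant chain fragment for peptide. HLA-DMA sums were 8.37, 7.80 and 7.74 CPM in the CTL+siCTL libraries, 8.55, 7.67 and 8.36 CPM in those of TLX+siCTL, and 15.5, 16.9 and 15.3 CPM in those of TLX+siTLX. The first 2 groups overlapped and every TLX+siTLX library was higher. HLA-DMA was not called in the TLX comparison (0.09 ± 0.23, adjusted p = 0.842) and rose by 0.93 ± 0.23 in the siRNA comparison (adjusted p = 0.0165) and by 1.02 ± 0.23 in the combined comparison (adjusted p = 0.00684). On the single highest row the siRNA call was lost without S5, S6, S7 or S8 (adjusted p 0.0588, 0.0725, 0.0615 and 0.075), while the sum had 0.96 ± 0.07 (adjusted p = 1.53e-05). HLA-DMB was at 1.90 to 2.64, 0.806 to 1.28 and 3.66 to 4.33 CPM, lower in TLX+siCTL by 1.48 ± 0.22 (adjusted p = 0.00087) and higher after the siRNA by 2.29 ± 0.22 (adjusted p = 0.000127). HLA-DOA, part of the HLA-DM inhibitor HLA-DO, was at 0.0248 to 0.360 CPM over all libraries. Its highest row had 0.59 and -0.98 in the TLX and siRNA comparisons and its sum -1.48 and 1.76, opposite in sign, with the sum called in the siRNA comparison (adjusted p = 0.0494).

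CD74, the invariant chain that guides class II molecules to endosomes, stood on 1 row. It measured 113, 114 and 104 CPM in the CTL+siCTL libraries, 95.4, 94.9 and 92.6 CPM in those of TLX+siCTL, and 219, 255 and 250 CPM in those of TLX+siTLX. All 3 groups were separate. The fall in the TLX comparison was small, by 0.23 ± 0.06 (adjusted p = 0.0215), and the rises were 1.35 ± 0.06 in the siRNA comparison (adjusted p = 3.82e-06) and 1.13 ± 0.06 in the combined comparison (adjusted p = 1.77e-06). The fall lost its call without S1, S2, S4, S5 or S6 (adjusted p 0.0882, 0.0903, 0.0639, 0.0669 and 0.0836) and with the all-row medians set equal (-0.11, adjusted p = 0.221). CD74 and HLA-DRA thus had combined values of 1.13 and 0.77 but TLX comparison values of -0.23 and -1.55. Of the enzymes of the class II compartment, IFI30, a thiol reductase that opens disulphide bonds of antigens, measured 16.8, 17.7 and 19.1 CPM, then 22.6, 22.5 and 22.1 CPM, then 25.7, 29.2 and 30.4 CPM. Its groups were separate and ascending, with log2 fold changes of 0.32 ± 0.07 (adjusted p = 0.00736), 0.34 ± 0.07 (adjusted p = 0.00784) and 0.66 ± 0.07 (adjusted p = 8.76e-05). CTSS, the protease cathepsin S that degrades the invariant chain, lay at 43.9 to 56.7 CPM over all libraries and was not called in any comparison (log2 fold changes 0.05 to 0.18).

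CIITA, the coactivator of class II genes, did not fall with them in the TLX-overexpressing cells. Its values were 3.53, 4.16 and 3.88 CPM in the CTL+siCTL libraries, 5.35, 4.47 and 8.93 CPM in those of TLX+siCTL, and 12.6, 17.5 and 14.3 CPM in those of TLX+siTLX. The groups did not overlap, and within TLX+siCTL S6 was well above S4 and S5. In the TLX comparison the log2 fold change was 0.63 ± 0.23 and not called (adjusted p = 0.0775), and the call was gained in some settings, among them without S5 and with quantile normalization. CIITA rose by 1.29 ± 0.23 in the siRNA comparison (adjusted p = 0.00401) and by 1.92 ± 0.23 in the combined comparison (adjusted p = 0.000206), a 3.84-fold difference in mean CPM. CIITA in every TLX+siCTL library was above all control libraries, while HLA-DRA, HLA-DRB1 and HLA-DPA1 were below them.

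NLRC5, the class I coactivator, measured 12.9, 17.0 and 16.2 CPM in the CTL+siCTL libraries, 21.1, 25.1 and 27.2 CPM in those of TLX+siCTL, and 28.7, 31.1 and 29.3 CPM in those of TLX+siTLX. Every library of a later group was above those of the earlier. It rose by 0.67 ± 0.12 in the TLX comparison (adjusted p = 0.0023) and by 0.96 ± 0.12 in the combined comparison (adjusted p = 0.000224), and the siRNA comparison was not called (0.29 ± 0.12, adjusted p = 0.13). RFX5, the DNA-binding subunit of the RFX complex, measured 36.3, 36.2 and 37 CPM, then 44.5, 43.8 and 40.0 CPM, then 48.1, 49.1 and 45.5 CPM, again without overlap. Its log2 fold changes were 0.23 ± 0.05 (adjusted p = 0.0075), 0.15 ± 0.05 (adjusted p = 0.0537) and 0.38 ± 0.05 (adjusted p = 0.000303). The other RFX subunits differed. RFXAP rose by 0.31 ± 0.10 in the TLX comparison (adjusted p = 0.0427), a call that was lost without S1, S3, S4, S5 or S6 (adjusted p 0.0534 to 0.0848), and had 0.00 in the combined comparison. RFXANK was lower in the combined comparison by a log2 fold change of -0.24 ± 0.06 (adjusted p = 0.011), the only member called lower there.

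The classical class I chains rose in every step. HLA-B sums were 854, 906 and 824 CPM in the CTL+siCTL libraries, 1870, 1605 and 1764 CPM in those of TLX+siCTL, and 2719, 2432 and 2419 CPM in those of TLX+siTLX. All groups were separate. Its log2 fold changes were 1.02 ± 0.06 (adjusted p = 3.51e-06), 0.48 ± 0.06 (adjusted p = 0.000384) and 1.5 ± 0.06 (adjusted p = 2.77e-07), and the sum was 2.93-fold above the control cells in the combined comparison. HLA-C measured 434, 441 and 404 CPM, then 593, 560 and 579 CPM, then 778, 793 and 813 CPM. It was likewise separate in all groups, with 0.35 ± 0.06 (adjusted p = 0.00287), 0.44 ± 0.06 (adjusted p = 0.00128) and 0.80 ± 0.06 (adjusted p = 1.71e-05). Of its 7 rows, 6 rose in the siRNA comparison and 1 fell (-1.51).

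B2M, the light chain shared by all class I molecules, measured 827, 840 and 807 CPM in the CTL+siCTL libraries, 1050, 1002 and 1008 CPM in those of TLX+siCTL, and 1302, 1214 and 1144 CPM in those of TLX+siTLX. Its groups were separate in the same order as those of HLA-B. The log2 fold changes were 0.31 ± 0.05 (adjusted p = 0.00162), 0.24 ± 0.05 (adjusted p = 0.00988) and 0.55 ± 0.05 (adjusted p = 4.14e-05). With all-row medians set equal the siRNA comparison of B2M was 0.10 (adjusted p = 0.294).

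HLA-E, the ligand of the inhibitory NKG2A receptor on natural killer cells, measured 355, 362 and 350 CPM, then 558, 533 and 561 CPM, then 603, 623 and 637 CPM. Most of its increase lay in the TLX comparison, at 0.76 ± 0.04 (adjusted p = 3.08e-06), with 0.18 ± 0.04 in the siRNA comparison (adjusted p = 0.0119). That smaller value was 0.04 (adjusted p = 0.628) with all-row medians set equal. HLA-F, a nonclassical class I chain, was lowest in TLX+siCTL, as HLA-DRA was. It measured 9.50, 7.87 and 8.23 CPM in the CTL+siCTL libraries, 6.82, 5.4 and 6.9 CPM in those of TLX+siCTL, and 18.2, 19.5 and 21.7 CPM in those of TLX+siTLX; the 3 groups did not overlap. It fell by 0.78 ± 0.19 (adjusted p = 0.0144) and rose by 1.85 ± 0.19 (adjusted p = 0.000214) and 1.06 ± 0.19 (adjusted p = 0.00242). The fall was lost without S1, S3, S4 or S5 (adjusted p 0.07, 0.0638, 0.0586 and 0.0624), and for the sum it was smaller, by 0.42 ± 0.12 (adjusted p = 0.0189). HLA-G, a chain typical of placenta, was at no more than 0.0902 CPM in any library and was not called.

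**Figure D3:**
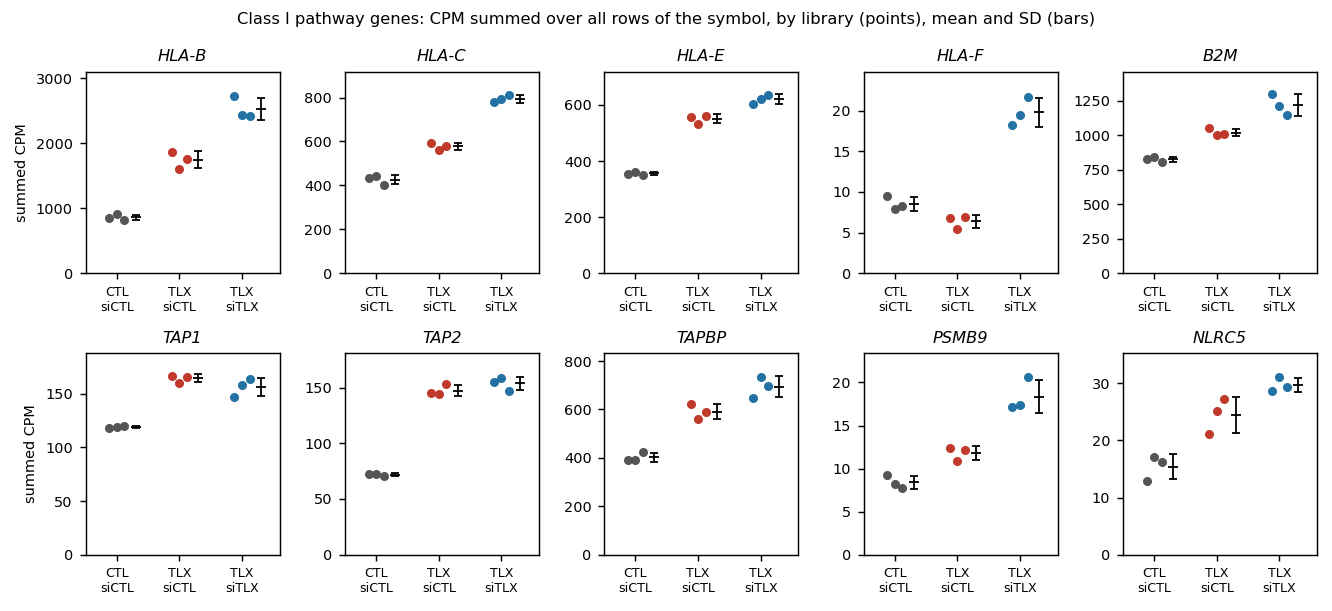
CPM summed over all rows of a symbol for 10 genes of the class I pathway; points are libraries, the horizontal mark and bar are mean and SD (n = 3), axes start at 0. HLA-B, HLA-C and B2M ascend over the groups, TAP1 and TAP2 are higher in TLX+siCTL and TLX+siTLX than in CTL+siCTL, and HLA-F is lowest in TLX+siCTL.

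The promoters of HLA-B (chr6:31357180-31357379, minus strand) and B2M (chr15:44711317-44711516, plus strand) are shown as the heavy and light chain that ascended together. They are the 200 bases before the start, from RefSeq GRCh38.p14, with capitals as above.
HLA-B: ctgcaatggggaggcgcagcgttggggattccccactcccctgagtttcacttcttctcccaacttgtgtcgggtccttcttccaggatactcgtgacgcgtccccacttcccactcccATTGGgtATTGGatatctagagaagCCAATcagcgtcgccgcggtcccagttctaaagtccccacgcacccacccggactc
B2M: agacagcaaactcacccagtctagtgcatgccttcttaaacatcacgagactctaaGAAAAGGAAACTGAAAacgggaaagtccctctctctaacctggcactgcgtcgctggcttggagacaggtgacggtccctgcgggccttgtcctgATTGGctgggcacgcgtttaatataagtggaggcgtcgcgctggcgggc

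Y-box letters stood in 5 of 7 class I windows (71.4%) and the interferon response element in 2 (28.6%), those of B2M, where 2 matches overlapped between 144 and 129 bases before the start, and of HLA-F. The X-box core letters were in 0 of the 7. Among the 10 windows of the transport, loading and trimming genes, the interferon response element was in 4 (40.0%), which belonged to TAP1, TAP2, TAPBP and ERAP2.

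The peptide transporter rose in the TLX comparison, and neither of its subunits was called in the siRNA comparison on its highest row or as a sum. The primary assembly's TAP2 row, with 28.3% of the sum, did rise there, by 0.38 ± 0.08 (adjusted p = 0.00776). TAP2, a subunit of the transporter, measured 72.7, 72.7 and 70.2 CPM in the CTL+siCTL libraries, 145, 144 and 153 CPM in those of TLX+siCTL, and 155, 159 and 147 CPM in those of TLX+siTLX. TLX+siCTL and TLX+siTLX overlapped and CTL+siCTL stood apart below them. TAP2 rose by 1.03 ± 0.06 in the TLX comparison (adjusted p = 4.15e-06) and by 0.98 ± 0.06 in the combined comparison (adjusted p = 2.91e-06), and the siRNA comparison had -0.05 ± 0.06 (adjusted p = 0.638). TAP1, the other subunit, was at 118 to 120, 160 to 167 and 147 to 164 CPM, with 0.46 ± 0.05 (adjusted p = 0.000142), -0.12 ± 0.05 (adjusted p = 0.123) and 0.33 ± 0.05 (adjusted p = 0.00072).

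TAPBP, or tapasin, which bridges class I molecules to the transporter, measured 391, 391 and 425 CPM, then 622, 560 and 590 CPM, then 648, 736 and 698 CPM. Its groups were separate. It rose by 0.52 ± 0.06 (adjusted p = 0.000243), 0.25 ± 0.06 (adjusted p = 0.0203) and 0.77 ± 0.06 (adjusted p = 1.72e-05), and the siRNA call was lost without S5, S6, S8 or S9 (adjusted p 0.0799, 0.0723, 0.0828 and 0.0641), with all-row medians set equal (0.10, adjusted p = 0.247) and with quantile normalization (0.15, adjusted p = 0.136). TAPBPL, the tapasin-related peptide editor, differed: 3.29, 2.55 and 3.55 CPM in the CTL+siCTL libraries, 2.39, 2.77 and 2.65 CPM in those of TLX+siCTL, and 5.26, 6.06 and 4.96 CPM in those of TLX+siTLX. Only TLX+siTLX stood apart, by 1.05 ± 0.14 from TLX+siCTL (adjusted p = 0.000859) and by 0.80 ± 0.14 from CTL+siCTL (adjusted p = 0.00211). Of the trimming peptidases, ERAP1 was called in the combined comparison alone (0.37 ± 0.10, adjusted p = 0.0157), a call lost without S2, S3, S7 or S8 (adjusted p 0.0543, 0.0769, 0.0734 and 0.0769), and ERAP2 in none (6.47 to 8.31 CPM over all libraries).

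Among immunoproteasome genes PSMB9, a catalytic subunit, had the largest combined log2 fold change. Its sums were 9.28, 8.15 and 7.74 CPM in the CTL+siCTL libraries, 12.4, 10.9 and 12.1 CPM in those of TLX+siCTL, and 17.1, 17.4 and 20.6 CPM in those of TLX+siTLX. The groups were separate, and PSMB9 rose by 0.51 ± 0.11 (adjusted p = 0.00615), 0.65 ± 0.11 (adjusted p = 0.00242) and 1.16 ± 0.11 (adjusted p = 3.76e-05). PSMB8, its neighbour in the MHC, was not called on its highest row, and its sum rose by 0.45 ± 0.05 in the TLX comparison (adjusted p = 7.93e-05) and by 0.58 ± 0.05 in the combined comparison (adjusted p = 1.01e-05). PSMB10, the remaining inducible subunit, was called in the combined comparison alone (0.27 ± 0.09, adjusted p = 0.0489), and each omission of 1 library other than S7 ended that call (adjusted p 0.0606 to 0.156).

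PSME2, a subunit of the proteasome activator, measured 64.2, 64.3 and 64.2 CPM, then 95.2, 91.6 and 93.4 CPM, then 85.6, 83.0 and 97.3 CPM. TLX+siCTL and TLX+siTLX overlapped, as for TAP2, and PSME2 rose by 0.54 ± 0.06 in the TLX comparison (adjusted p = 0.000116) and by 0.46 ± 0.06 in the combined comparison (adjusted p = 0.000224), with -0.08 ± 0.06 in the siRNA comparison (adjusted p = 0.422). PSME1, its partner, rose by 0.28 ± 0.07 (adjusted p = 0.0128) and 0.33 ± 0.07 (adjusted p = 0.00465), and the first of these calls was lost without S3, S4 or S6 (adjusted p 0.058, 0.06 and 0.0557). Each of these genes stood on 2 rows whose values agreed within 0.02 log2 units in every library.

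The 3 NKG2D ligands, stress-induced surface proteins seen by natural killer cells, moved little. MICA lay at 88.3 to 121 CPM over all libraries and rose on its highest row in the TLX comparison (0.33 ± 0.07, adjusted p = 0.00876) but not as a sum (0.22 ± 0.08, adjusted p = 0.0785). MICB sums were 81.7 to 83.2, 91.1 to 95.6 and 97.6 to 115 CPM, with a combined log2 fold change of 0.31 ± 0.08 (adjusted p = 0.0194) that was not called without S1, S2 or S8 (adjusted p 0.0725, 0.085 and 0.0595). The MICB rise in the TLX comparison (0.26 ± 0.08, adjusted p = 0.0464) was lost without S1, S2, S3, S4, S5, S6 or S8 (adjusted p 0.0856 to 0.16). In the siRNA comparison only the MICB sum was called, at 0.21 ± 0.06 (adjusted p = 0.031), and its highest row was not. ULBP2 was at 11.9 to 14.9 CPM and rose by 0.25 ± 0.05 in the siRNA comparison (adjusted p = 0.00771) and by 0.18 ± 0.05 in the combined comparison (adjusted p = 0.0285). The first call was lost with all-row medians set equal (0.11, adjusted p = 0.232) and with quantile normalization (0.17, adjusted p = 0.0562). The second was lost in the same settings (0.15, adjusted p = 0.094, and 0.15, adjusted p = 0.0673) and without S2, S3 or S8 (adjusted p 0.0689, 0.0602 and 0.0533).

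**Figure D4:**
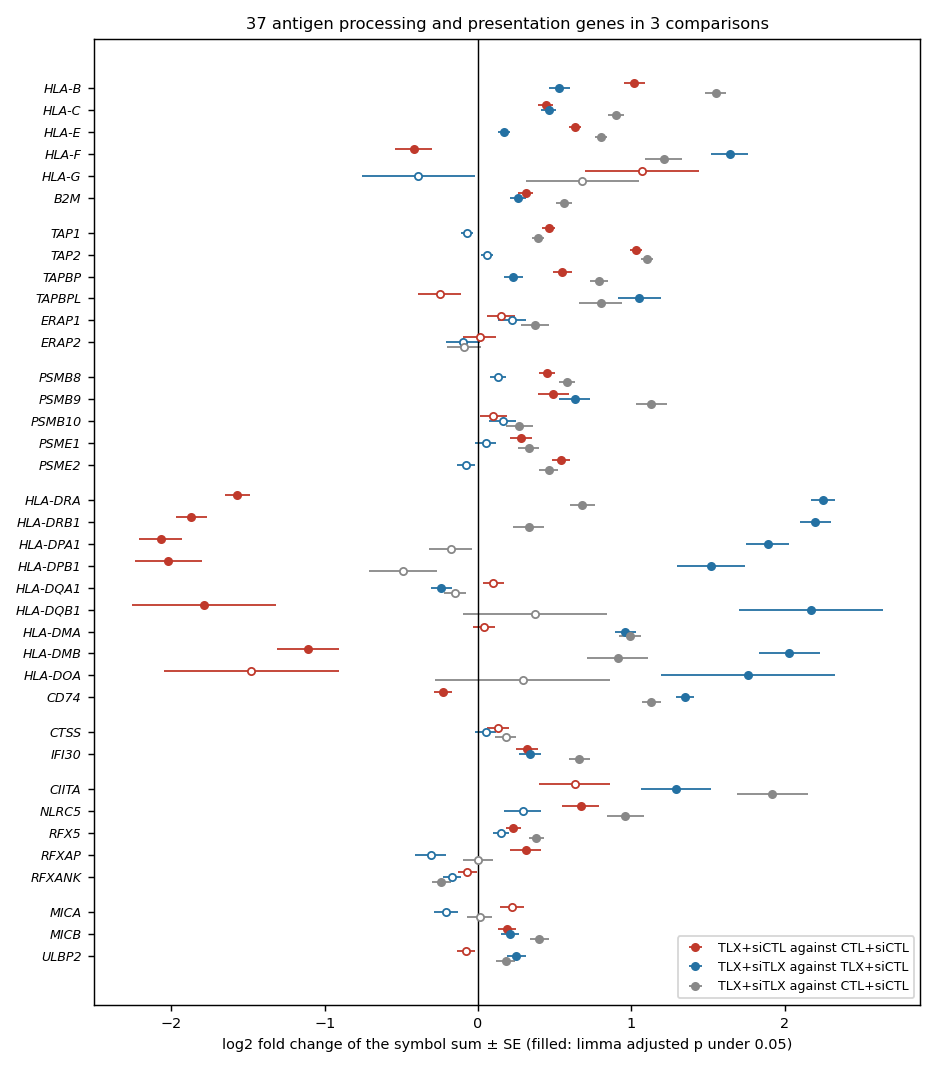
Log2 fold change of the summed level (± SE) of each of the 37 members in the 3 comparisons; filled points have a limma adjusted p under 0.05. HLA-DRA, HLA-DRB1, HLA-DPA1, HLA-DPB1, HLA-DQB1 and HLA-DMB are below -1 in the TLX comparison and above 1 in the siRNA comparison, and HLA-B and TAP2 are near 1 in the TLX comparison.

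The rows of a symbol did not always give 1 answer. The primary assembly's row carried 0.0392% of the HLA-DRA sum, 0.318% for HLA-DRB1, 1.48% for HLA-B, 1.59% for HLA-DMB and 1.73% for HLA-DMA, against 79.2% for B2M and 40.9% for TAP1. Among the HLA-DRA rows, 4 of 5 fell in the TLX comparison and 4 of 5 rose in the siRNA comparison, and the exception in each was called in neither direction. For HLA-B, 5 of 6 rows rose in the TLX comparison and 4 of 6 in the siRNA comparison. HLA-E had 4 rows of 7 that lay within 0.02 log2 units of 1 of them in every library, HLA-DMA 5 of 8, and TAP1 and PSMB8 4 of 8 each. Reads of these near-identical copies can be divided among rows by the authors' quantification, so the level of a single row is uncertain.

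**Figure D5:**
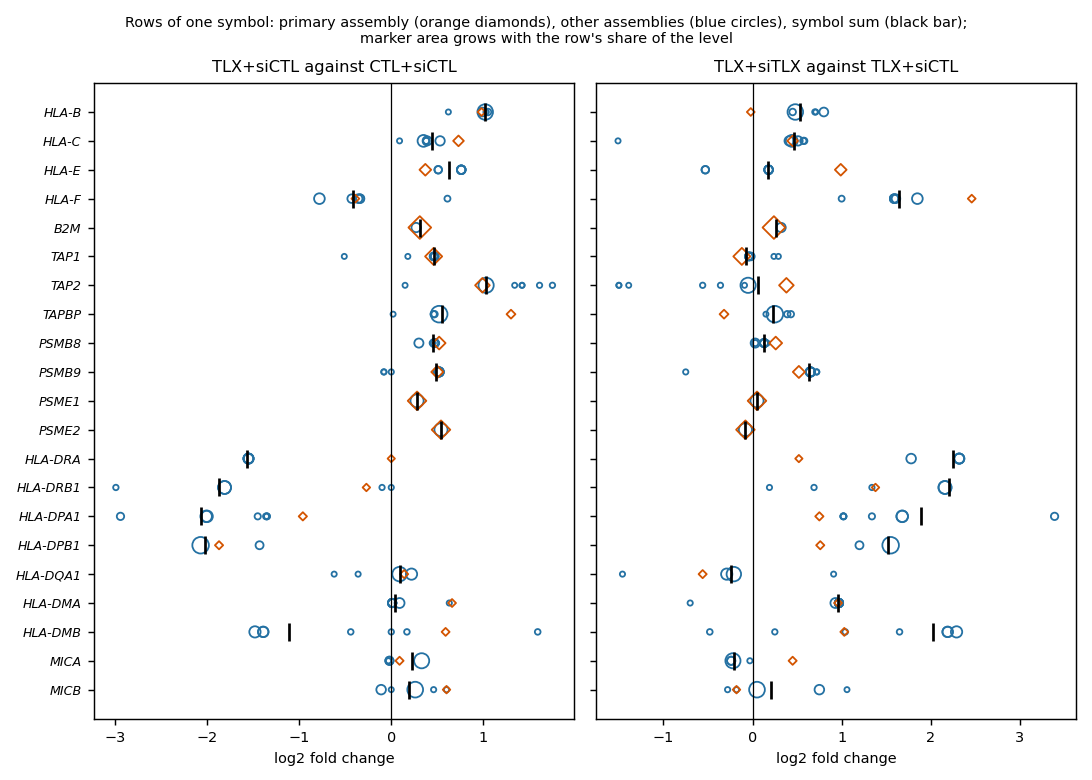
Log2 fold change of every row of 21 symbols in the TLX comparison (left) and the siRNA comparison (right); diamonds are rows of the primary assembly, circles other rows, with area growing with the row's share of the level, and the black bar is the sum. For HLA-DRA the primary row sits at 0.00 and 0.52, away from the sum at -1.57 and 2.25.

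Other genes of the pathway were read from lists kept apart from the members. Their counts stand beside the shares of rows that reached a mean of 1 and were called higher and lower, 29.3% and 27.4% in the TLX comparison, 23.8% and 22.0% in the siRNA comparison and 32.4% and 31.2% in the combined comparison. Of 17 constitutive proteasome genes, 10 rose and 1 fell in the TLX comparison (median 0.19), and 1 rose and 9 fell in the siRNA comparison (median -0.14). Of the 5 immunoproteasome and activator members, 1 (PSMB9) rose in the siRNA comparison and 4 were not called (median 0.05). Of 6 chaperones and partners of the endoplasmic reticulum, 0, 1 and 1 rose and 3, 1 and 4 fell over the 3 comparisons. HSPA5, the main folding chaperone there, had log2 CPM values of 12.23, 12.21 and 12.03, then 11.21, 11.30 and 11.26, then 10.83, 10.72 and 10.71, a combined log2 fold change of -1.40 ± 0.07 (adjusted p = 9.65e-07).

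Of 11 further genes of the class II compartment, 6 rose and 0 fell in the TLX comparison, 4 and 0 in the siRNA comparison and 5 and 1 in the combined comparison. Cathepsin H (CTSH) rose by 1.30 ± 0.04 (adjusted p = 1.47e-07), cathepsin F (CTSF) by 1.12 ± 0.04 (adjusted p = 1.79e-07) and cystatin C (CST3), a cathepsin inhibitor, by 0.82 ± 0.06 (adjusted p = 1.24e-05) in the combined comparison. MARCHF1, a ubiquitin ligase that removes class II molecules from the surface, rose by 1.11 ± 0.31 in the TLX comparison (adjusted p = 0.026). It was scarce, with a mean log2 CPM of -0.21, and a link to the class II RNA levels was not tested. Of 9 other MHC and MHC-like genes 2 rose and 3 fell, then 3 and 0, then 2 and 1. Among them HLA-DQA2 was at log2 CPM -4.33, -3.74 and -4.27 in CTL+siCTL and at the table's lowest value of -5.33 in all TLX+siCTL libraries. In TLX+siTLX HLA-DQA2 was at -4.02, -5.33 and -5.33, and the siRNA comparison was not called (0.44 ± 0.35, adjusted p = 0.469). All these values lie close to the lowest value. Of 5 other NKG2D ligands 1, 2 and 2 rose and 0 fell, with RAET1L up by 1.40 ± 0.41 in the siRNA comparison (adjusted p = 0.0363).

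Of 13 genes of MHC transcription and interferon gamma signalling, 3 rose and 4 fell in the TLX comparison, 2 and 2 in the siRNA comparison, and 4 and 5 in the combined comparison, near those shares in each. JAK2, a kinase of the interferon gamma receptor, was at log2 CPM 4.41, 4.44 and 4.29, then 3.15, 3.10 and 3.06, then 3.45, 2.85 and 2.53, and fell by 1.28 ± 0.19 in the TLX comparison (adjusted p = 0.000914). SOCS1, an inhibitor of that pathway, was at 0.57, 0.81 and 0.46, then 0.33, 0.55 and 0.28, then 1.47, 1.91 and 1.91, and rose by 1.38 ± 0.17 in the siRNA comparison (adjusted p = 0.000504). Interferon ligands were on 3 of 7 symbols in the table. IFNL1, an interferon lambda, was called lower in the TLX comparison (-1.61 ± 0.53, adjusted p = 0.0499), and the summed ligands were at no more than 0.520 CPM in any library. Of 6 measured costimulation and checkpoint genes 3, 3 and 3 rose and 2, 0 and 0 fell, with PDCD1LG2, the PD-L2 ligand, up by 2.17 ± 0.14 in the combined comparison (adjusted p = 3.82e-06).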

How the data were processed

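The authors deposited log2 CPM values per Ensembl gene for the 9 libraries and a table of signed fold changes, p-values and false discovery rates per comparison. The tools kallisto 0.44.0, edgeR and limma and the build GRCh38 are named, without roles, per the submitters' processing notes. The TruSeq kit kept strand, per the labels' protocols. Depth was read from the steps between low values. Here limma 3.58.1 (R 4.3.3) was fitted to the deposited log2 values of all 27548 rows and 9 libraries, with a mean per group, an intensity trend and two-sided Benjamini-Hochberg adjusted p-values over all rows. For sums, the linear CPM above the table's lowest value (0.0248 CPM) was added over the rows of a symbol and fitted likewise over 25245 symbols. A prior count in the deposited values understates changes of low genes. Table columns name a group and a running number, S1 to S9, and 0 columns were left unmapped. Rows were placed with GENCODE 29. Members on a mean log2 CPM of at least 1 called with an absolute log2 fold change of at least 0.5, and CIITA, NLRC5, RFX5, HLA-DRA, CD74 and B2M, are given by library. Of other lists, called genes with at least 0.8 are named, at most 4 a list. Members and lists were chosen with earlier results of these data known. The fit was tested on simulated data.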

Additional observations from a re-analysis of the deposited data

How the results depend on the processing

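Of 68 called member comparisons, 37 kept their call in every alternative run that included the member, and 31 lost it in 1 or more. Scarce members were absent from the fit of rows at a mean of 1 or more. HLA-DQB1 also had no row on the primary assembly. Leaving out each library in turn gave 19 to 24 members called in the TLX comparison, 17 to 22 in the siRNA comparison and 21 to 26 in the combined comparison, with 7033 to 8664, 5219 to 6241 and 8312 to 9209 rows called, and with summed rows 19 to 25, 18 to 24 and 23 to 27 members. Symbol sums without single libraries were added after seeing the data. When each symbol was read from its row on the primary assembly, 14 members (13 higher, 1 lower) were called in the TLX comparison and 11 (11 higher, 0 lower) in the siRNA comparison, where the primary row of HLA-B (-0.02, adjusted p = 0.977) and of TAPBP (-0.32, adjusted p = 0.423) reversed sign, as did that of HLA-DMB in the TLX comparison (0.59, adjusted p = 0.634). Those 3 rows carry 1.48%, 4.82% and 1.59% of the symbol's sum. The primary rows of TAP2 and PSMB8 were called higher in the siRNA comparison (0.38, adjusted p = 0.00776, and 0.26, adjusted p = 0.00817), unlike their highest rows and sums. They carry 28.3% and 19.4% of the sum. For HLA-E and PSMB9 the primary row carries 15.6% and 16.3%, and it was not called in the TLX comparison (0.37, adjusted p = 0.545, and 0.50, adjusted p = 0.365) or the siRNA comparison (0.99, adjusted p = 0.105, and 0.52, adjusted p = 0.375). In all other settings the total of members or rows called, both directions together, was within 1.5 times the reported total. By direction, the siRNA comparison with all-row medians set equal gave 2253 rows higher and 5273 lower against 3507 and 3011, and 6 members lower against 0. With only rows at a mean of 1 or more, 4 members were lower in the TLX comparison against 8, the other 4 not being in the fit. No paired analysis was possible because the table's columns carry none of the labels' replicate numbers. A precise level of 1 haplotype row, and changes of HLA-G, HLA-DQB1 and HLA-DOA, are limited by depth and by the division of reads.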

Other observations

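The authors' deposited table lists 16 members higher and 8 lower in the TLX comparison at a false discovery rate under 0.05, 19 and 1 in the siRNA comparison, and 23 and 1 in the combined comparison. Its calls and those of limma here were the same for 37, 36 and 34 of the 37 members.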
